A study of Homo sapiens with 2 samples.

Results

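The T-box genes described here are 8 developmental transcription factor genes, TBX1, TBX2, TBX3, TBX4, TBX5, TBX15, TBX18 and TBX20, chosen by name and read by their spans on hg19. They are 8 of 17 T-box genes read in these data, and their spans with 20 kb on either side made up 650 of the 2736177 bins of 1 kb that held a read on chromosomes 1 to 22 and X. Trimethylated lysine 27 of histone H3 (H3K27me3) was profiled with ChIP-seq in the established human colorectal carcinoma line HCT116. There were 2 libraries in 1 group, replicate 1 and replicate 2, which the labels call biological replicates, from cells grown in McCoy's 5A medium with serum. Both come from a single cell line, and neither an input library nor another treatment or antibody was used here, so the comparisons are between loci and between replicates.

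H3K27me3 is laid down by Polycomb repressive complex 2 and marks silenced developmental genes, often over CpG-rich promoters and whole gene clusters. T-box proteins share a DNA-binding domain, the T-box, and pattern limbs, heart, pharyngeal arches, skeleton and urogenital tract in the embryo. TBX2 and TBX3 mainly act as repressors, TBX4 and TBX5 specify hindlimb and forelimb, and these genes lie in neighbouring pairs, TBX2 with TBX4 and TBX3 with TBX5.

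The RefSeq promoter table, on GRCh38.p14, matched 5 of the 8 genes. The promoter sequences of TBX20, TBX5, TBX1 and TBX18 are shown. Over 3 kb, their 5′ ends span the range from the highest level of the 8 genes to one of the lowest. Each is the 250 bases before the annotated start, 5′ to 3′ along the gene, with CG dinucleotides, the sites of CpG methylation, in capitals. They lie at chr7:35254101-35254350 (minus strand), chr12:114408443-114408692 (minus), chr22:19756453-19756702 (plus) and chr6:84764599-84764848 (minus) of GRCh38.p14.
TBX20: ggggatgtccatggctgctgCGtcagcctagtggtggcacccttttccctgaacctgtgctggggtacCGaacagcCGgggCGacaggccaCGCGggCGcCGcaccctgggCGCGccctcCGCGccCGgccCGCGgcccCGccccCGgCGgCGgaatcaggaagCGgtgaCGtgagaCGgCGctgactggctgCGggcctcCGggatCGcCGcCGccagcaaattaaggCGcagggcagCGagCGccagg
TBX5: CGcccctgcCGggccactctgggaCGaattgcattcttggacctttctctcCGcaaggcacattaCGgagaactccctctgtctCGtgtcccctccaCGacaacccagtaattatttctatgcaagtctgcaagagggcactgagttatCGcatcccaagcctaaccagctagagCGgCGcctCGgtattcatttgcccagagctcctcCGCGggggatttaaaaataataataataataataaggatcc
TBX1: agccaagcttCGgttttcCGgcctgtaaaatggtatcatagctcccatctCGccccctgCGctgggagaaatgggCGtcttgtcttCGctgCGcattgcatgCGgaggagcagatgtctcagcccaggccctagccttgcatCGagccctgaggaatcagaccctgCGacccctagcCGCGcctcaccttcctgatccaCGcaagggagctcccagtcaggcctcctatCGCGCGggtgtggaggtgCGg
TBX18: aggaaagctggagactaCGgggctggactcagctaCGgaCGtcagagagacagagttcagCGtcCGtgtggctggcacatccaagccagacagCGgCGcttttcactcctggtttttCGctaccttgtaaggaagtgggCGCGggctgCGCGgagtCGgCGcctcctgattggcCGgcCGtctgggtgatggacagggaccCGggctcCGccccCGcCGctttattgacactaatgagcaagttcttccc
Over the full promoter of 300 bases in the table, TBX20 held 38 CG dinucleotides at a GC content of 73.3%. TBX1 held 22 at 64.7%, TBX18 held 21 at 59.3%, and the outer start of TBX5 held 15 at 51.3%. A second TBX5 start in the table, not shown, held 21 at 54.3%. The median over 35116 promoters of the same length was 14 CG dinucleotides and 58.7% GC. TBX20 thus stood above 90.1% of promoters in CG dinucleotides, the outer start of TBX5 above 51.1%, and its second start, like TBX18, above 60.5%. The T-box core motif GGTGTGA, searched on both strands, was found in none of the promoters of the 5 matched genes and in 3.45% of all promoters in the table.

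Replicate 1 held 53187504 reads and replicate 2 held 97031399 reads, or 22.002 and 37.5 reads per listed autosomal bin of 1 kb. The level of a bin is its read count over that mean, so a level of 1 is the mean listed bin, and the median listed bin stood at 0.409 and 0.373. Counting error alone was 15.1% and 11.5% of a level of 2 in a single bin if every read is independent, and larger if mates of a pair were counted singly. Enriched bins are those that, in each library, reached a level of 2 or more and passed a one-sided Poisson test of their count against the mean (Benjamini-Hochberg adjusted over all bins, threshold 0.05). The labelled cell type cannot be checked against marker expression with a histone mark.

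The 8 genes fell into a marked and a low set. TBX5, TBX15, TBX3 and TBX18 stood above the mean bin over their spans with flanks, and TBX4, TBX20, TBX2 and TBX1 stood below it, in both libraries. In all, 203 of the 650 bins (31.2%) were enriched, against 12.2% of all tested bins. Only the 4 marked genes had a larger enriched share than the genome, and they held 193 of the 203 bins. TBX5 was the highest, at 2.82 in replicate 1 and 3.17 in replicate 2 with 64 of 96 bins enriched (66.7%). TBX15 followed at 2.50 and 2.81 with 82 of 148 bins (55.4%). TBX3 stood at 2.18 and 2.15 with 25 of 54 bins (46.3%), and TBX18 at 1.70 and 1.82 with 22 of 73 (30.1%). At a fold minimum of 3 the share of TBX18 was 4.11%, below the 7.28% of all tested bins under that rule.

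The low set ran from 0.714 for TBX4 to 0.453 for TBX1 as means of both libraries. TBX4 measured 0.690 in replicate 1 and 0.739 in replicate 2, and none of its 70 bins was enriched. TBX20 measured 0.625 and 0.715, with 6 of 92 bins enriched (6.52%), all next to its 5′ end. TBX2 measured 0.604 and 0.637 with 3 of 50 bins (6.00%), and TBX1 measured 0.440 and 0.466 with 1 of 67 (1.49%). In the order of the means, neighbouring genes did not overlap between libraries except TBX4 with TBX20 and TBX20 with TBX2. The ranges of TBX5 and TBX15 barely parted, at 2.8155 for TBX5 in replicate 1 and 2.8145 for TBX15 in replicate 2. These values are from different libraries. Within each library all genes kept the order of the means, also those whose ranges overlapped. The order depends on the scaling: relative to the mean of the own chromosome, TBX18, at 2.31, passed TBX3, at 2.17, and TBX20, at 0.776, passed TBX4, at 0.534 (means of both libraries). The gap between TBX18, at 1.76 ± 0.0838, and TBX4, at 0.714 ± 0.0351 (SD, n = 2), was the widest between neighbours in this order as a ratio. With 2 libraries of 1 group no test between genes was made, and the spread between the libraries may be technical.

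**Figure D1:**
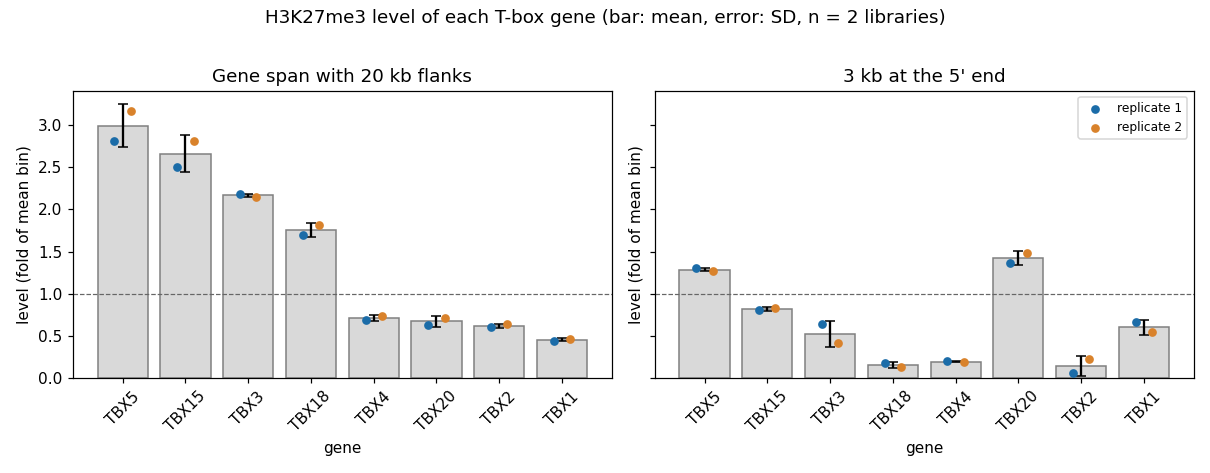
H3K27me3 level (fold of the mean listed 1 kb bin) of each T-box gene over its span with 20 kb flanks (left) and over 3 kb at its 5′ end (right); bars are means, error bars SD of 2 libraries, points the libraries. Over the whole window 4 genes lie above 1 in both libraries, while at the 5′ end only TBX5 and TBX20 do.

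The 5′ ends of the marked genes stood lower than their windows. The 5′ end was read over 3 bins of 1 kb centred on the bin with the annotated start. In both libraries, 6 of the 8 genes had a lower level there than over the whole window, against 4 of the 9 other T-box genes. Those 4 included TBX21 and TBXT, the only ones of the 9 with a window above the mean bin in both libraries. The 5′ ends of all genes were not read, so no share over the genome stands beside these counts. The median listed bin was itself below the mean bin, at 0.409 and 0.373. At the 5′ end of TBX18, 12 reads in replicate 1 and 15 in replicate 2 gave levels of 0.182 and 0.133 (exact Poisson 95% intervals, 0.0939 to 0.318 and 0.0746 to 0.220, for counting error only, and PCR copies or mates of a pair are not independent reads). This was 10.7% and 7.34% of the level over its window. TBX3 measured 0.636 and 0.417 at its 5′ end, TBX15 measured 0.803 and 0.835, and TBX5 measured 1.30 and 1.27. These were 29.2% and 19.4%, 32.1% and 29.7%, and 46.3% and 40.1% of the levels over their windows.

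In the low set, the 5′ ends of TBX2 and TBX4 were low, at 0.0606 and 0.231 for TBX2, from 4 and 26 reads, and at 0.197 and 0.186 for TBX4. The counting intervals of TBX2 were 0.0165 to 0.155 and 0.151 to 0.338 and hardly overlapped. They are too narrow if mates of a pair were counted singly, so they do not settle whether the libraries differ there. TBX1 measured 0.667 and 0.542, above its window. TBX20 had the highest 5′ end of the 8 genes over the 3 bins, at 1.36 and 1.48, or 218% and 207% of its window level. It was the only one of the 8 genes with an enriched bin among the 3. That bin lay 1 kb inside, at 2.91 and 3.36, while the bin with the start measured 0.545 and 0.719. In the start bin alone, the TBX20 mean of 0.632 was below its window mean of 0.670. It was also below TBX5, at 1.01, and TBX15, at 0.824. Of these, only the order to TBX5 held in both libraries. In replicate 2 the TBX20 start bin, at 0.719, stood above its window, at 0.715, and above TBX15, at 0.693. The promoter of TBX20 had the most CG dinucleotides of the 5 matched genes. GC content and mappability act on read counts, no input library was used here, and their part in the levels at the 5′ ends was not tested.

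**Figure D2:**
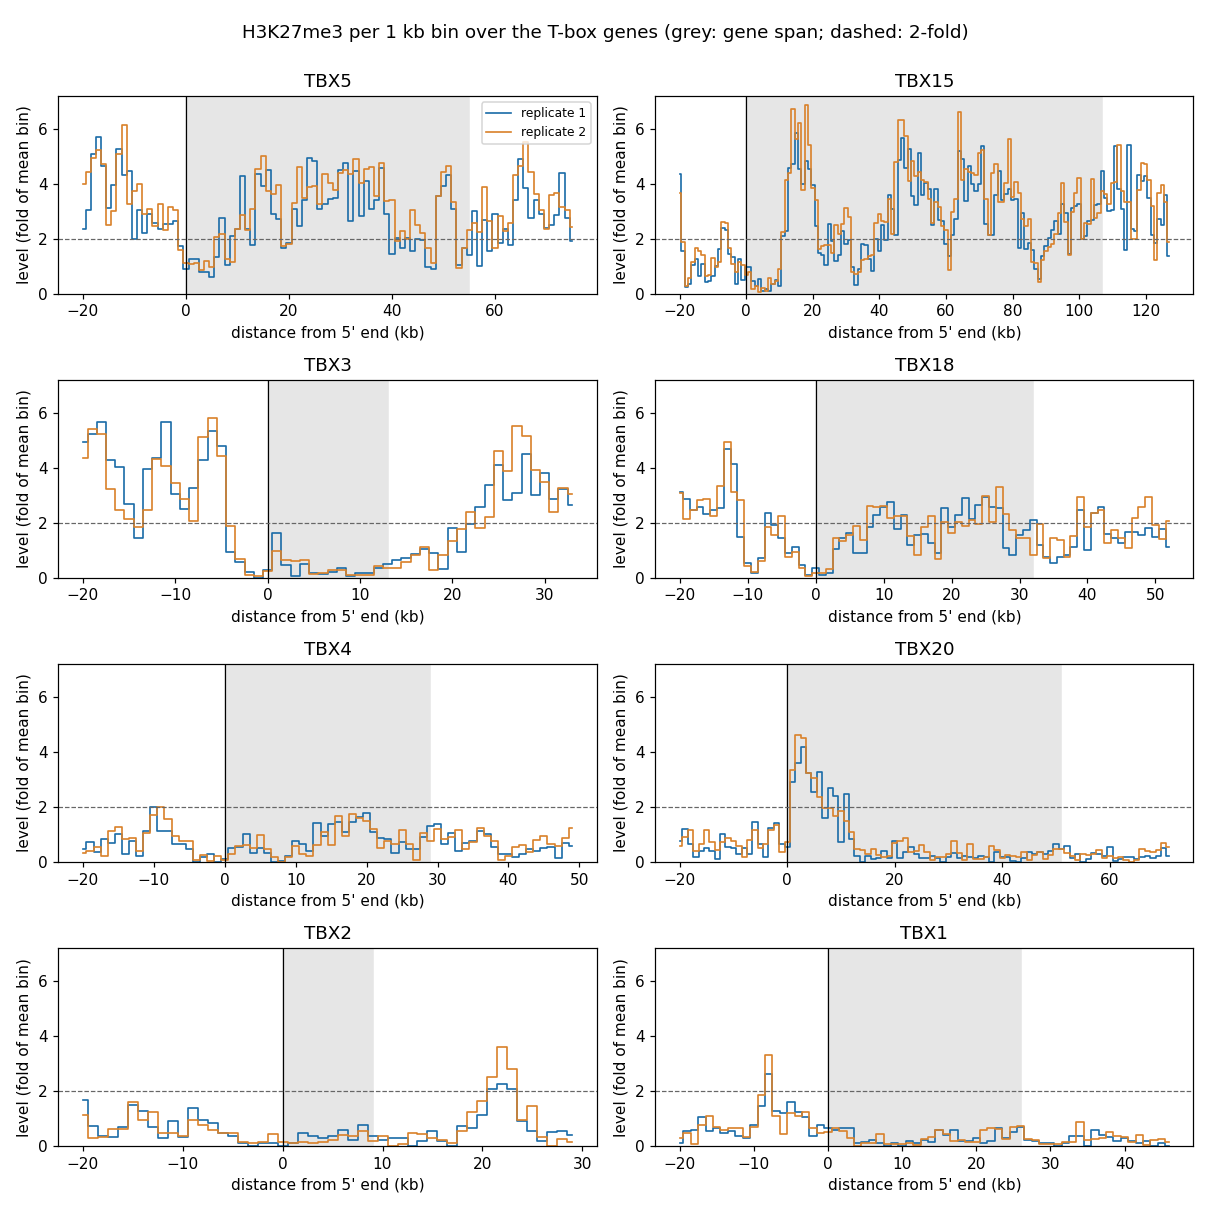
H3K27me3 level per 1 kb bin (fold of the mean listed bin, vertical axis) by distance from the 5′ end along each gene's own strand (kb, horizontal axis), with both libraries as lines and the gene span in grey. TBX3 has a trough over its whole span between enriched flanks, TBX5 and TBX18 have one at the 5′ end, TBX15 has its deepest one 2 to 10 kb inside the gene, and TBX20 has a single block just inside its 5′ end.

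TBX3, a repressor gene mutated in ulnar-mammary syndrome, lies at chr12:115108001-115122000 on the minus strand and was marked around, not within, its span. The body alone measured 0.364 (replicate 1) and 0.365 (replicate 2), and none of its 14 bins was enriched. The 16 bins from 20 to 5 kb upstream measured 4.10 and 3.71, with 15 of them enriched. From 3 kb upstream to 19 kb downstream of the 5′ end the level was 0.453 and 0.434 over 23 bins, none of them enriched. It rose again past the 3′ end, to 3.34 and 3.76 over 10 enriched bins from 24 to 33 kb. The window level of TBX3 thus comes from its flanks, and it is 0.364 ± 0.00125 (SD, n = 2) without them.

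TBX5, which specifies the forelimb and heart and is mutated in Holt-Oram syndrome, lies at chr12:114791001-114847000 on the minus strand. Its body was marked, at 2.65 in replicate 1 and 2.98 in replicate 2, with 32 of 56 bins enriched. The 19 bins upstream, from 20 to 2 kb before the 5′ end, measured 3.41 and 3.76, with 18 enriched. Across the 5′ end, from 1 kb upstream to 5 kb inside, 7 bins fell to 1.05 and 1.14, none of them enriched. This trough was shallower than that of TBX18, and every bin of the TBX5 window held at least 0.5 of the mean bin in both libraries. Inside the gene, 19 consecutive bins from 21 to 39 kb were all enriched, at 3.65 and 4.09. A dip to 1.62 and 2.24 between 40 and 48 kb separated them from 4 enriched bins at 3.72 and 3.996.

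Enriched bins of 5 kb, called by the same rule (14.1% of all tested 5 kb bins) and joined over gaps of at most 1 bin, form the domains described here. Levels on 5 kb bins are folds of the mean listed 5 kb bin. TBX5 lay wholly inside a domain of 470 kb, chr12:114405001-114875000, at 4.46 ± 0.0287 (SD, n = 2). That domain ran 441 kb past the 5′ end in the direction of transcription, toward the neighbouring RBM19 gene. Its length rests on joining: with no gap joined the domain stretches that overlap TBX5 come to 170 kb, and at a fold minimum of 3 to 40 kb. Between 60 and 400 kb downstream of the 5′ end, 68 of 69 bins were enriched, at a mean of 4.51 and 4.56, which is above the level over the gene.

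The interval between TBX5 and TBX3 was marked over most of its length. The 261 kb from the 5′ end of TBX5 to the 3′ end of TBX3 measured 2.75 in replicate 1 and 2.96 in replicate 2, with 165 of 261 bins of 1 kb enriched (63.2%). The first 65 bins from TBX5 measured 3.08 and 3.30 and the next 65 measured 3.22 and 3.48. The level was lower toward TBX3, at 2.60 and 2.76 over the next 65 bins and 2.11 and 2.30 over the last 66, of which 30 were enriched. The bins next to the 3′ end of TBX3 belong to the trough over that gene. The highest bin, chr12:114944001-114945000, lay 98 kb from TBX5 and reached 6.82 and 8.05. The span of TBX3 was a gap of 25 kb between domains, chr12:115100001-115125000, with a level of 0.593 and 0.552 and a domain of 35 kb on either side.

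The other linked pair, on chromosome 17, carried little of the mark. TBX2, the paralogue of TBX3, lies at chr17:59477001-59487000 and TBX4, the paralogue of TBX5, at chr17:59533001-59563000, both on the plus strand. The 46 kb between them measured 0.613 in replicate 1 and 0.744 in replicate 2, against 2.75 and 2.96 between TBX5 and TBX3. The only enriched bins there, 3 of 46, formed a peak 21 to 23 kb past the 5′ end of TBX2, at 2.15 and 2.97. The 9 bins around the 5′ end of TBX2 measured 0.162 and 0.169. Within TBX4 the highest stretch, 16 to 21 kb inside, reached 1.42 and 1.44, and the 5 bins up to its 5′ end measured 0.109 and 0.128. Both genes lay in a stretch of 230 kb without a domain. Chromosome 17 as a whole was high in these libraries, with a mean level of 1.33 and 1.34, and copy number is not corrected. Scaled to their own chromosome, TBX2 measured 0.464 and TBX4 0.534 as means of both libraries. The RefSeq model of TBX4 is 2.69 kb longer than the span used, so another start may lie outside the 5′ end read here.

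**Figure D3:**
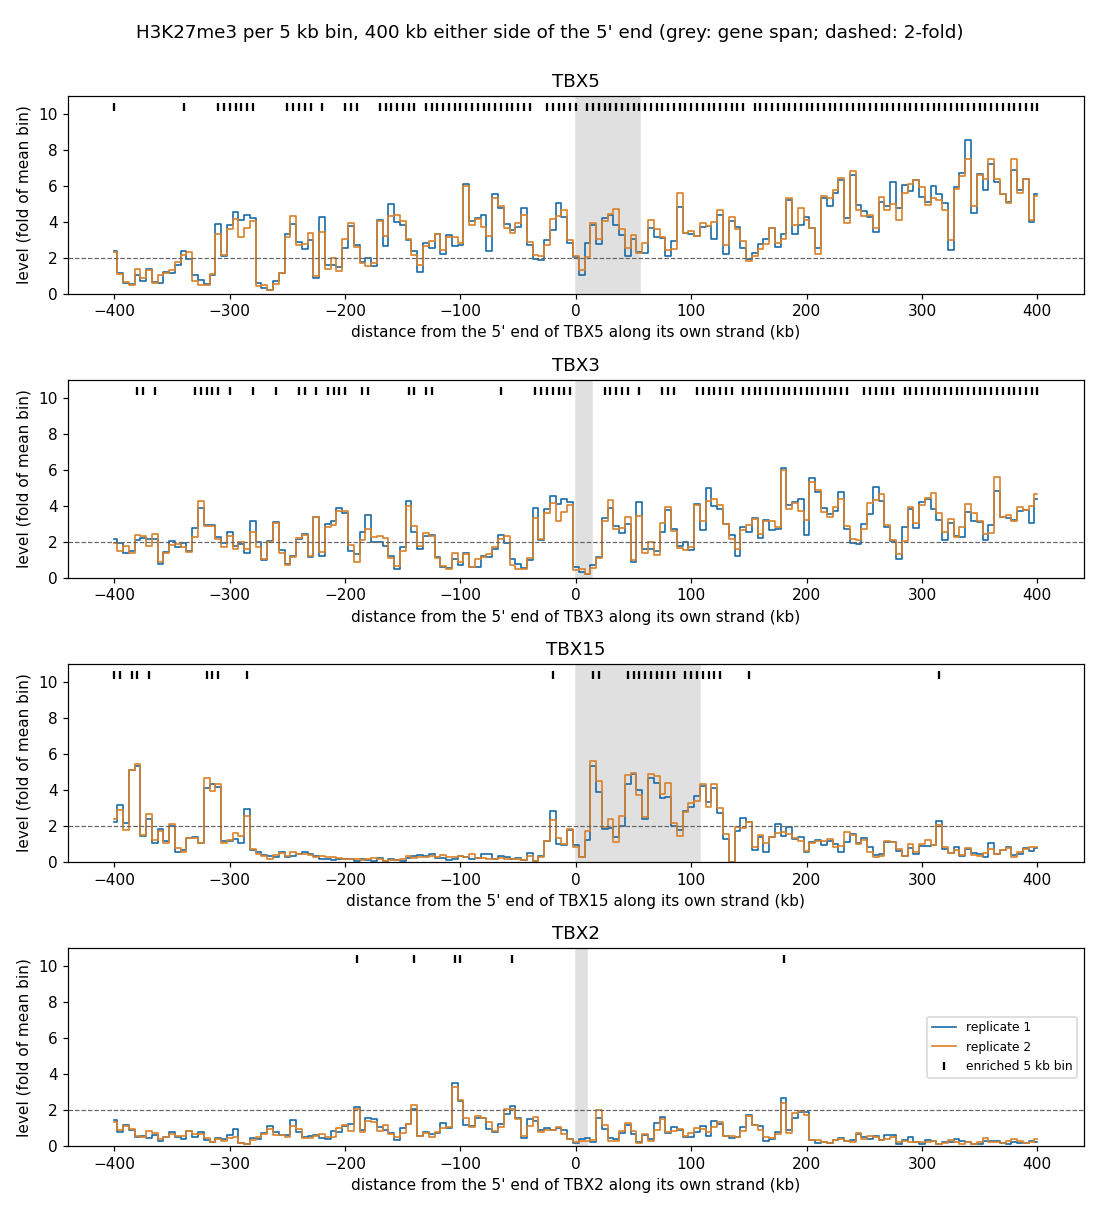
H3K27me3 level per 5 kb bin (fold of the mean listed 5 kb bin, vertical axis) for 400 kb either side of the 5′ ends of TBX5, TBX3, TBX15 and TBX2 (horizontal axis, kb along each gene's strand); lines are libraries, grey is the gene span and ticks are bins enriched in both. TBX5 and TBX3 sit in enriched surroundings, TBX15 has 14 enriched bins in its span and 16 outside it, and TBX2 has 6 enriched bins in the whole view.

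TBX15 and TBX18 are close relatives within the family. TBX15, which acts in skeletal, muscle and fat development, lies at chr1:119425001-119533000 on the minus strand. Most of its enriched bins lay inside the gene or past its 3′ end, and upstream there were 3 within 20 kb. These were a bin 20 kb upstream, at 4.36 in replicate 1 and 3.68 in replicate 2, and a pair at 7 and 6 kb. From 18 kb upstream to 1 kb inside, the level was 1.02 and 1.19, with 2 of 20 bins enriched. It fell further to 0.308 and 0.349 between 2 and 10 kb inside, over 9 bins and 61 and 118 reads. At 11 kb it rose to an enriched block of 11 bins at 3.99 and 4.80, whose highest bins reached 5.86 and 6.87.

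Further blocks followed along the gene, at 3.78 and 4.10 between 43 and 59 kb and at 3.63 and 4.20 between 62 and 81 kb. All 17 and 20 bins of these blocks were enriched. The 20 kb past the 3′ end of TBX15 measured 3.19 and 3.48, against 1.22 and 1.39 over the 20 kb upstream. The domains over TBX15 covered 85 kb, chr1:119405001-119490000, at 3.68 ± 0.101 and 10 kb, chr1:119510001-119520000, at 4.83 ± 0.316 (SD, n = 2). Upstream, 0 of 49 bins of 5 kb between 30 and 270 kb before the 5′ end were enriched in both libraries, at a mean level of 0.244 and 0.242. Farther upstream, 9 of 25 bins from 280 to 400 kb were enriched, the highest at 5.33 and 5.47.

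TBX18, needed for the sinoatrial node, epicardium and ureter, lies at chr6:85442001-85475000 on the minus strand and was marked at a lower level. Its body measured 1.71 in replicate 1 and 1.74 in replicate 2, with 10 of 33 bins enriched. The 9 bins from 20 to 12 kb upstream were all enriched, at 3.02 and 3.01, and stood higher than the gene itself. Over the 5 bins from 2 kb upstream to 2 kb inside, the level was 0.236 and 0.218, from 26 and 41 reads. Between 8 and 28 kb inside it was 2.08 and 2.09, near the 2-fold minimum, with 10 of 21 bins enriched. A domain of 20 kb, chr6:85445001-85465000, covered 60.6% of the span at 2.37 ± 0.0890 (SD, n = 2), and at a fold minimum of 3 no domain overlapped the gene. The 5′ end lay in a gap of 20 kb between that domain and one of 10 kb upstream.

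TBX20 and TBX1 act in heart and pharyngeal development. TBX20, a cardiac gene, lies at chr7:35242001-35294000 on the minus strand and carried only a short block just inside its 5′ end. The 21 bins up to and with the 5′ end measured 0.636 in replicate 1 and 0.752 in replicate 2. The next 6 bins, 1 to 6 kb inside, were all enriched at 3.29 and 3.53, and the highest reached 4.18 and 4.61. The level was 1.78 and 1.67 from 7 to 12 kb and 0.233 and 0.318 over the remaining 59 bins. The domain was 10 kb long, chr7:35285001-35295000, at 2.80 ± 0.0495 (SD, n = 2), and was the only domain other than that of TBX5 to hold a 5′ end of these genes. At a fold minimum of 3 it was no longer a domain.

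TBX1, a gene of the DiGeorge syndrome deletion, lies at chr22:19744001-19771000 on the plus strand and had the lowest window level of the 8. Its body measured 0.310 in replicate 1 and 0.323 in replicate 2. A single bin 8 kb upstream was enriched, at 2.64 and 3.30, from 58 and 124 reads. The 11 bins from 4 to 14 kb inside measured 0.116 and 0.138. TBX1 lay in a stretch of 520 kb without a domain.

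Among the other 9 T-box genes, 1 was marked over most of its window. TBX21, the T helper lineage factor gene T-bet, stood at 2.93 in replicate 1 and 3.14 in replicate 2 with 59.3% of its bins enriched, and was the only one of the 9 with a share above the genome's 12.2%. It lies on chromosome 17, and scaled to that chromosome its level was 2.27. TBXT, the notochord gene brachyury, measured 1.27 and 1.38 with 3.85% of its bins enriched. MGA, which encodes a MAX-binding T-box protein, measured 0.385 and 0.428 with 6 enriched bins, all upstream of its span. EOMES, TBR1, TBX6, TBX10, TBX19 and TBX22 had no enriched bin, and their levels ran from 0.106 for TBX6 to 0.498 for TBX19 in replicate 1. TBX22 lies on chromosome X and measured 0.136 and 0.140, or 0.319 and 0.354 scaled to that chromosome. In all 40 of 585 bins of the 9 genes (6.84%) were enriched, and their median level was 0.385 and 0.428, against 1.19 and 1.28 for the 8 genes described here. The difference between these lists was not tested. GAPDH and ACTB, genes active in most cells, measured 0.123 and 0.131, and 0.227 and 0.210, with no enriched bin.

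**Figure D4:**
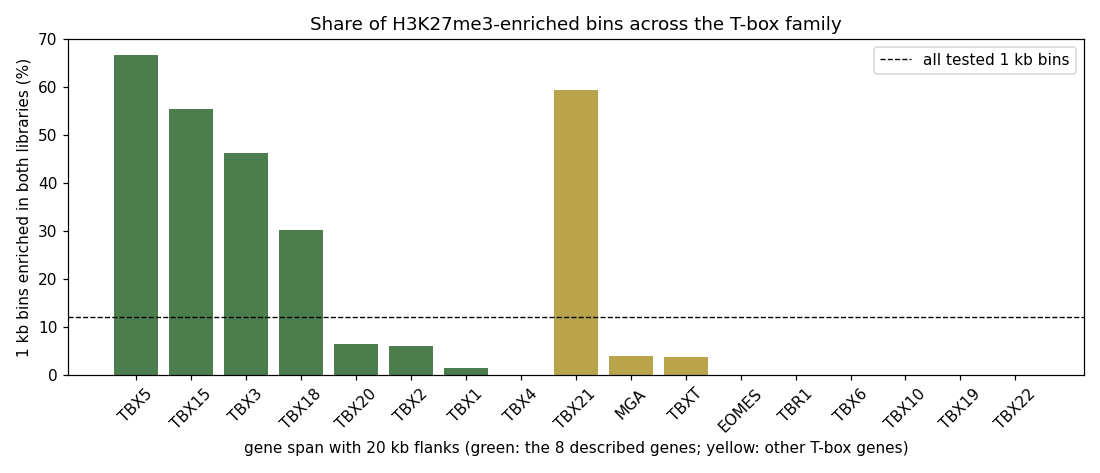
Share of 1 kb bins enriched in both libraries (%, vertical axis) over the span with 20 kb flanks of each T-box gene, for the 8 genes described (green) and the 9 others (yellow), with the share over all tested bins, 12.2%, as a dashed line. TBX5, TBX15, TBX3, TBX18 and TBX21 lie above the line.

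A 5′ end below the window level was not shared by all of the family. Of the 9 other genes, 4 had a lower level at the 5′ end than over the window in both libraries and 5 had a higher one. Those 5 were TBR1, TBX10, TBX19, TBX22 and MGA, whose windows all lay below the mean bin. A higher 5′ end could still be low, as for TBX22, at 0.258 and 0.151. TBX6 held 35 CG dinucleotides in its promoter, near the 38 of TBX20, and its 5′ end measured 0.0606 and 0.0977. Its whole window was low, at 0.106 and 0.129. MGA held 33 at the most CG-rich of its listed starts, and its 5′ end measured 1.12 and 0.995. A link between CG dinucleotides and the level at the 5′ end was not tested. The RefSeq model of MGA is 37.7 kb longer than the span used, so its 5′ end may be another start.

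Between libraries, replicate 2 stood higher than replicate 1 in 7 of the 8 windows, by ratios from 1.06 for TBX2 to 1.14 for TBX20, and TBX3 had a ratio of 0.986. Over 14571 autosomal tiles of 50 kb at a level of at least 1, the median ratio was 1.07, with a 5th to 95th percentile range of 0.990 to 1.15. Of the 4 marked genes, TBX3 lay just below that range and the others within it. Over 25048 tiles from 0.2 to under 1, the range was 0.907 to 1.28, and the 4 low genes lay within it. The shallower library lists fewer bins, which raises the mean that its levels are divided by.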

How the data were processed

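H3K27me3 ChIP-seq of 2 HCT116 libraries was analysed. The values are raw counts of reads in windows of 1000 bases, as described in the text the authors deposited with the files, which leave out windows at 0. The aligner was BWA 0.7.12 and the build hg19, per the submitters' processing notes. How reads were counted, and whether duplicates or poorly mapped reads were removed, is not given in the sources used here.

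Unlisted bins counted as 0. Enrichment was tested over every listed 1 kb bin of the 22 autosomes and X and, for domains, over sums in 5 kb bins. The depth was 53187504 and 97031399 reads. Tested on simulated data the size of chromosome 22, the procedure called 96.7% of bins with a true level of 3, 0.229% of those at 1.5 and 0 of 39480 at 0.4. Those reads were drawn in pairs from a Poisson distribution over a flat background of 0.4. Uneven copy number and an uneven background were not simulated, so these rates need not hold for the real libraries. Members, lists and rules were chosen with earlier results of these data known, and the stretches within a gene were chosen from the profiles. The text names the 8 members, the other T-box genes of a fixed list and 2 reference genes. Spans of the members were given with the task, and spans of the other genes were written from general knowledge. They were checked for chromosome and length against a RefSeq table on GRCh38, whose neighbouring genes are named without coordinates. Strands are from general knowledge, and matched the promoter table for all genes it lists. Protein sequences were not used here. Alternatives were other flanks, scalings, fold minimums, bins, joins and 5′ windows, counts divided by 2, and each replicate left out. Dividing counts by 2 could not change a call, since bins at the 2-fold minimum pass the Poisson test at either count. The software was scipy 1.17.1, numpy 2.4.6 and pandas 2.3.3 under Python 3.11.15, with matplotlib 3.10.9 for plots.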

Additional observations from a re-analysis of the deposited data

How the results depend on the processing

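Of 45 alternatives over the summaries of the 8 genes, 35 left a summary the same and 10 moved it. The 35 include those with counts divided by 2, which could not change a call. Reversals of direction were not scored. Counts and shares were taken as the same within 1.5 times, and levels within 1 SD of the libraries. The median window level of 1.24 became 0.785 without flanks, which is below the mean bin. It was 1.09 with flanks of 50 kb, 1.47 scaled to the own chromosome and 3.17 scaled to the autosomal median bin. Without flanks, 3 genes instead of 4 stood above the mean bin, since TBX3 is marked outside its span. The median 5′ level of 0.565 became 0.416 over 1 bin and 0.780 over 11 bins, and 6 genes stayed below their window in each setting. At a fold minimum of 3, 16.6% of bins were enriched against 7.28% of the genome, and TBX18, at 4.11%, fell below it. There 2 genes instead of 4 were overlapped by a domain, over 115 kb instead of 595 kb. With no gap joined the domains covered 285 kb. Leaving out a replicate gave median levels of 1.19 to 1.28, 5′ levels of 0.480 to 0.651, enriched shares of 33.8% to 36.9% and domains of 595 to 765 kb. The enriched share of the genome was then 14.8% without replicate 1 and 14.9% without replicate 2. The causes were not tested. No paired analysis was possible because the libraries form a single group. Depth limits the troughs, such as the 5′ end of TBX2 with 4 and 26 reads.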

Other observations

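Beyond 20 kb, the surroundings of the genes differed. Within 400 kb of the 5′ end, 6 of 161 bins of 5 kb were enriched around TBX2 and 6 of 161 around TBX4, windows that overlap, and 8 of 161 around TBX1, at mean levels of 0.758, 0.727 and 0.590 in replicate 1. Around TBX20, 0 of 79 bins were enriched from 10 to 400 kb downstream of the 5′ end, at 0.279 and 0.303, and 6 of 80 upstream. TBX18 had 33 of 76 enriched bins from 25 to 400 kb upstream, at 2.03 and 2.09, and 15 of 70 from 55 to 400 kb downstream, at 1.48 and 1.44. Downstream of TBX15, a marked gene, 1 of 49 bins from 160 to 400 kb was enriched, at 0.898 and 0.917. These stretches were chosen after the profiles had been seen.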
